A study of Mus musculus with 6 samples.

Results

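Glycolysis was followed through 10 of its enzymes, Hk1, Hk2, Gpi1, Pfkl, Pfkp, Aldoa, Tpi1, Gapdh, Pgk1 and Ldha, in dental tissue of the mouse lower incisor with and without the transcriptional coactivator Med1 in its epithelium. The enzymes were chosen by symbol, and every array probe annotated to one of these symbols was taken, whatever its value. Probes were found for 9 of the 10 enzymes, 15 probes in all, among 16593 genes with a probe on the array, and Gpi1 had no probe under that symbol. KO mice were C57BL/6 animals of 4 weeks with genotype MED1 fl/fl and a K14-driven Cre, and CON mice were littermates of the same strain and age that were MED1 fl/fl without Cre, so that both genotypes carried the floxed alleles. Tissue was microdissected at the cervical loop (CL), the niche of dental epithelial stem cells, at the secretory stage (Sec), where ameloblasts lay down enamel matrix, and at the maturation stage (Mat), where enamel hardens. Each array took the combined tissue of 3 mice, and each genotype and stage had 1 array, 6 in all. The keratin 14 promoter restricts the deletion to epithelium, while the dissected tissue also held other cells.

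Glycolysis splits glucose into pyruvate through a chain of cytosolic enzymes and yields ATP without oxygen. Hexokinase traps glucose in the cell, phosphofructokinase commits it to the pathway, aldolase and triose phosphate isomerase cleave and interconvert the sugars, and the later enzymes recover ATP and pyruvate, which lactate dehydrogenase can turn into lactate. Several steps are served by isozymes that differ between tissues, skeletal muscle having its own forms, and the hypoxia-inducible factor and Myc are textbook activators of these genes.

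Values are log2 normalized intensities of a gene's brightest probe. A gene was considered at a stage when its probe was detected on either array at a detection p-value under 0.01, and was called higher or lower when the 2 arrays differed by at least 1.5-fold, a log2 difference of 0.58, with detection on the brighter array. With 1 array per genotype and stage these counts describe pairs of arrays and carry no test. Med1 itself read 9.04 in KO and 9.58 in CON at CL, 8.72 in KO and 9.35 in CON at Sec, and 8.66 in KO and 9.15 in CON at Mat. The place of its probe relative to the deleted exons is not given in the sources used here. The enamel protease gene Klk4 read 6.19 in KO and 6.86 in CON at CL, and between 13.21 and 14.38 at Sec and Mat. Amelogenin (Amelx) lay between 14.91 and 15.32 and Krt14 between 14.50 and 15.20 on the 6 arrays. Both were near the top of the scale at CL too, so they do not tell the stages apart. The value of 15.32, that of Amelx in KO at Sec, was also the highest of any probe on the array. Of 5 ameloblast genes 2 were higher and 1 lower in KO at CL (median 0.19), 2 were higher and none lower at Sec (median 0.19), and none was higher and 2 were lower at Mat (median -0.35), the enamel proteases Klk4 (-0.93) and Mmp20 (-0.71). Genes of other tissue were present too. Of 15 skeletal muscle genes 14 were higher in KO at Sec, and at Mat 7 were higher and 2 lower, and at both stages KO had the higher value for 8 of 8 hair shaft and root sheath genes. In such bulk tissue, fewer cells of a type and less RNA per cell cannot be told apart.

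At CL no enzyme differed by 1.5-fold between KO and CON, at Sec only Pfkp did, and at Mat Tpi1 and Ldha, of the middle and the end of the pathway, were lower in KO. At CL 8 enzymes were considered and none was higher or lower, where 1.81% of all 8794 genes considered were higher and 2% lower in KO. At Sec 1 of 8 was higher and none lower, against a background of 11.7% higher and 15.2% lower among 9073 genes. At Mat none of 9 was higher and 2 were lower, against 12.6% higher and 18.4% lower among 9218 genes, so the count of lower enzymes was near the background. With arrays scaled to a common median 4 were lower at Mat, Pfkl and Gapdh joining, and at 2-fold none was. Over the enzymes considered the median log2 difference (KO minus CON) was -0.01 at CL, and the same median over all genes was -0.02. At Sec it was -0.12 (all genes -0.10), and at Mat it was -0.52 (all genes -0.14). Pgk1 entered at Mat as a bound, and over the 8 enzymes detected on both Mat arrays the median was -0.53. Among these 8 the differences of 5 lay below 0 at CL, those of 6 at Sec and those of 7 at Mat, and over all genes detected on both arrays 53.0%, 60.7% and 63.3% lay below 0 at these stages.

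**Figure D1:**
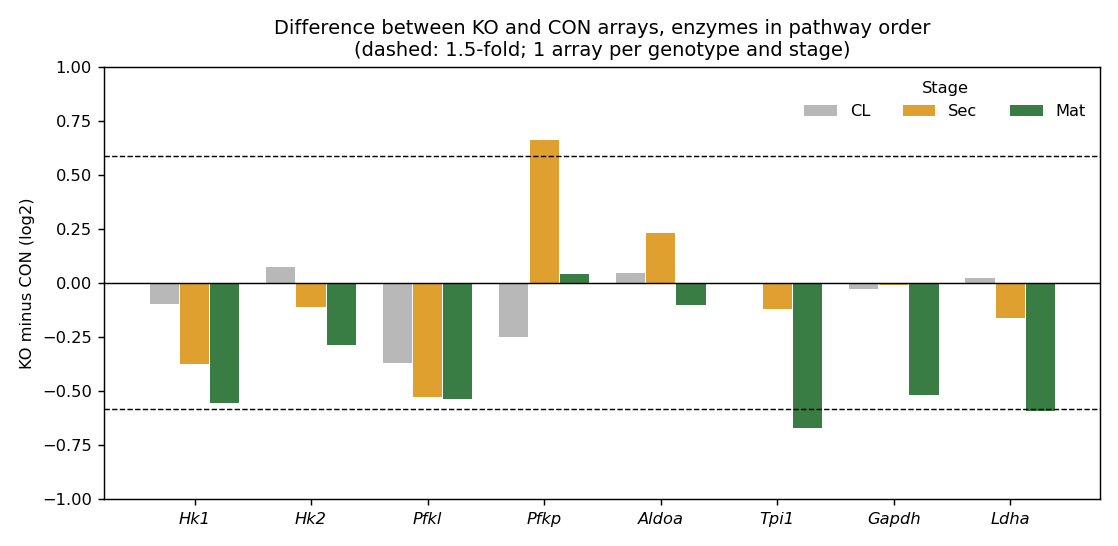
Log2 difference (KO minus CON) of the 8 enzymes detected on all 6 arrays, in pathway order, at CL (grey), Sec (orange) and Mat (green), each bar being 1 array against 1 array, with dashed lines at 1.5-fold. Pfkp at Sec (0.66) lies above the upper line, Tpi1 (-0.67) and Ldha (-0.60) at Mat lie below the lower one, and Hk1 (-0.56), Pfkl (-0.54) and Gapdh (-0.52) at Mat end short of it.

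Of the hexokinases, Hk1 (chromosome 10 of GRCm38.p6 from 62268855 to 62379920) is the form of most tissues and Hk2 (chromosome 6 from 82725025 to 82774454) the inducible form of muscle, fat and growing cells. Hk1 read 7.56 in KO and 7.66 in CON at CL, 7.31 in KO and 7.69 in CON at Sec, and 7.13 in KO and 7.68 in CON at Mat. The CON arrays spanned less than 0.1 across the stages, and each KO array lay below its CON array, with log2 differences, from CL through Sec to Mat, of -0.10, -0.38 and -0.56 that stayed inside 1.5-fold. Hk2 read 12.02 in KO and 11.95 in CON at CL, 11.48 in KO and 11.59 in CON at Sec, and 11.35 in KO and 11.64 in CON at Mat. Its brightest arrays were the CL arrays of both genotypes, and its differences were 0.07, -0.11 and -0.29.

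The liver-type phosphofructokinase Pfkl (chromosome 10 from 77986947 to 78009807) and the platelet-type Pfkp (chromosome 13 from 6579874 to 6649060) carry the committing step. Pfkl read 10.60 in KO and 10.97 in CON at CL, 10.40 in KO and 10.92 in CON at Sec, and 10.64 in KO and 11.18 in CON at Mat. On this brighter probe the KO arrays lay between 10.40 and 10.64 and the CON arrays between 10.92 and 11.18. How many of all genes separate in this way was not counted. The differences (-0.37, -0.53 and -0.54) varied less between stages than those of the other enzymes detected on all arrays. They stayed inside 1.5-fold each time. A second and dim Pfkl probe, between 6.02 and 6.79, gave 0.22 at CL, 0.21 at Sec and -0.76 at Mat, and so matched the brighter probe in sign at Mat alone. With the mean of both probes Pfkl differed by -0.08 at CL, -0.16 at Sec and -0.65 at Mat. Pfkp read 7.50 in KO and 7.75 in CON at CL, 8.86 in KO and 8.20 in CON at Sec, and 9.91 in KO and 9.87 in CON at Mat. Pfkp was 1.58-fold higher in KO at Sec, a log2 difference of 0.66, and differed by -0.25 at CL and by 0.04 at Mat. A second Pfkp probe gave 0.03, 0.31 and 0.42 at these stages, and the other Pfkp probe was detected on none of the 6 arrays. At Sec the call was therefore made by a single probe, and with the mean of the detected probes (0.48) or the deposited normalized values (0.49) Pfkp stayed inside 1.5-fold. Markers of other cells moved at Sec too. Of 8 neutrophil genes 7 were higher in KO at Sec (median 1.57), with a summed normalized intensity of 15928 in KO and 5079 in CON, and 5 of 8 were higher at CL (median 0.63), with 26083 in KO and 17654 in CON. At Sec 9 of 9 cornified epidermis genes were higher, while 5 of 10 endothelial, 4 of 4 osteoclast and 3 of 6 cell division genes were lower. The part of these cells in the value of Pfkp was not tested.

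The window around the start of Pfkp is printed as that of the 1 enzyme that passed the fold upward, from 250 bases before to 50 after the transcription start in RefSeq on GRCm38.p6 (chr13:6648722-6649021, minus strand, read 5′ to 3′ along the gene). Capitals mark GCGTG, which with ACGTG is the core of the hypoxia response element. Both strands were searched.
Pfkp: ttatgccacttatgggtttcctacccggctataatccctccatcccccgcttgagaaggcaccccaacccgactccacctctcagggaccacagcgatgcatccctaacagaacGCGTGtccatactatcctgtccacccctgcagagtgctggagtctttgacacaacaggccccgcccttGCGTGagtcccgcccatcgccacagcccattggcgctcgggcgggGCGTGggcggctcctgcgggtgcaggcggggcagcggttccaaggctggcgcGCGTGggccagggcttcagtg
GCGTG or its complement stood at 4 places in this window, and ACGTG and the E-box CACGTG at none.

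The aldolase of most tissues and of muscle, Aldoa (chromosome 7 from 126795234 to 126800994), read 11.35 in KO and 11.31 in CON at CL, 12.29 in KO and 12.06 in CON at Sec, and 13.002 in KO and 13.10 in CON at Mat. Its arrays paired by stage, not by genotype, with differences of 0.04, 0.23 and -0.10. Aldoa and Pfkp had the widest ranges across the stages of the 9 enzymes. Aldoa is abundant in skeletal muscle, and genes of that tissue differed between the same arrays. The summed normalized intensity of the 15 muscle genes was 8628 in KO and 7186 in CON at CL, 56598 in KO and 10031 in CON at Sec, and 84135 in KO and 55447 in CON at Mat. At Sec the muscle genes had a median log2 difference of 2.47 and 14 of 15 were higher, the exception being myoglobin (Mb, -0.06), whereas Aldoa differed by 0.23. All 15 muscle genes were detected on at least 3 arrays and none was absent from KO at Sec or Mat. The part of muscle in the values of Pfkp and Aldoa was not tested.

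The triose phosphate isomerase Tpi1 (chromosome 6 from 124810586 to 124814158) and Gapdh, the dehydrogenase of the next step (chromosome 6 from 125161852 to 125166467), parted between the genotypes at Mat. Tpi1 read 12.74 in KO and 12.74 in CON at CL, 12.99 in KO and 13.11 in CON at Sec, and 13.08 in KO and 13.76 in CON at Mat. Tpi1 was 1.59-fold lower in KO at Mat, a log2 difference of -0.67, with -0.00 at CL and -0.12 at Sec. Its other probes differed at Mat by -0.45 for a bright one and -0.17 for a dim one, both of the same sign and inside 1.5-fold, and the mean of the 3 probes was -0.43, so the call rests on the brightest probe.

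Gapdh read 14.06 in KO and 14.08 in CON at CL, 14.25 in KO and 14.26 in CON at Sec, and 14.18 in KO and 14.70 in CON at Mat. The CON array at Mat stood above the other 5 arrays, which lay between 14.06 and 14.26. A second Gapdh probe read 13.33 in KO and 13.90 in CON at Mat, a difference of -0.57 beside -0.52 for the brighter probe, and the difference of this second probe was 0.00 at CL but -0.22 at Sec. Gapdh is often used as the reference of quantitative PCR. Both probes had their largest difference at Mat, where they stayed inside 1.5-fold.

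**Figure D2:**
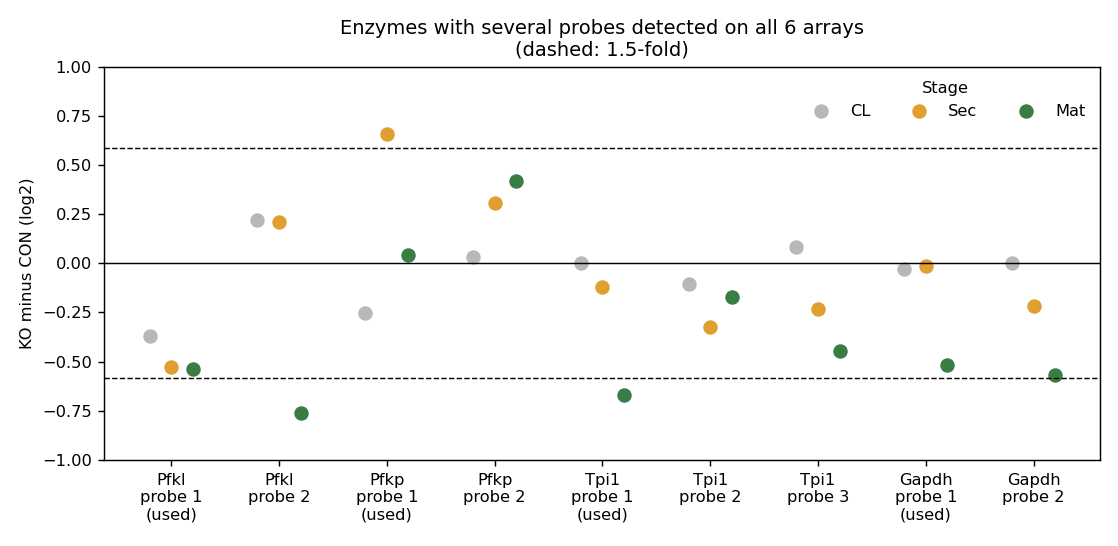
Log2 difference (KO minus CON) of each probe of the 4 enzymes with several probes detected on all 6 arrays, at CL (grey), Sec (orange) and Mat (green), with dashed lines at 1.5-fold. The Gapdh probes differ at Mat by -0.52 and -0.57, while the 3 Tpi1 probes spread from -0.67 to -0.17 and the Pfkl probes have opposite signs at CL and Sec.

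The phosphoglycerate kinase Pgk1 (chromosome X from 106187100 to 106203699) was near background. Its log2 values were 5.27 in KO and 5.61 in CON at CL and 5.74 in KO and 5.82 in CON at Sec. At Mat they were 6.12 in KO and 6.17 in CON. Pgk1 was detected on the KO array at Mat alone, the CON array there just missing the cutoff (detection p-value 0.01003). The other 5 readings were not well above background, so no fold is given for Pgk1.

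Lactate dehydrogenase A, Ldha (chromosome 7 from 46842274 to 46855627), closes the chain by reducing pyruvate to lactate. Ldha read 12.88 in KO and 12.86 in CON at CL, 12.96 in KO and 13.12 in CON at Sec, and 13.35 in KO and 13.95 in CON at Mat. Ldha was 1.51-fold lower in KO at Mat, a log2 difference of -0.60, with 0.02 at CL and -0.16 at Sec. A single probe reads Ldha, and it was past 1.5-fold at Mat in all 6 settings that kept this fold. The differences were -0.71 to -0.59. These settings include the main one. The mean of detected probes and the looser detection cutoff could not change the value, as Ldha has a single probe, detected on all arrays. The difference smallest in size (-0.589) lay close to the threshold, a log2 difference of 0.585.

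The windows around the starts of Tpi1 and Ldha are printed because these were the enzymes past 1.5-fold at Mat (RefSeq on GRCm38.p6, Tpi1 at chr6:124814109-124814408 on the minus strand and the first Ldha window at chr7:46845554-46845853 on the plus strand, each read 5′ to 3′ along the gene). Capitals mark each form of the hypoxia response core and the E-box on either strand.
Tpi1: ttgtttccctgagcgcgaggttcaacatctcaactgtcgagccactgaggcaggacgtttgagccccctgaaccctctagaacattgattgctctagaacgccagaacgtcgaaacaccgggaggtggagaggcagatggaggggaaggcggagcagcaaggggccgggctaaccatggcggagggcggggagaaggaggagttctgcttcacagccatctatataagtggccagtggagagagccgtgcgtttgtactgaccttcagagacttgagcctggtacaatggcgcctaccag
Ldha: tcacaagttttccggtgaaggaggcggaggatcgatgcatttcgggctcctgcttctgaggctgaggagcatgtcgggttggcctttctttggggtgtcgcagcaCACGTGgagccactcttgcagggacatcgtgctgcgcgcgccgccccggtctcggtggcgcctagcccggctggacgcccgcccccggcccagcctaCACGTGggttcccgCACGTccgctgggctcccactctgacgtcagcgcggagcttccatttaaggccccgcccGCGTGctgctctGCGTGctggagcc
The Tpi1 window held none of the motifs. In the Ldha window ACGTG stood at 5 places and GCGTG at 2, and 4 of the 5 ACGTG matches lay in 2 copies of the E-box CACGTG, which contains ACGTG on both strands. Over the 10 enzymes, all of which had a window, 10 of 14 windows of 300 bases held ACGTG or GCGTG, against 43.8% of the 32851 windows of all genes, and some of these windows belong to the same gene and overlap. CACGTG was found in 1 of the 14 and in 7.15% of all windows. A match describes letters in the window and a missing match says nothing of the factor.

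**Figure D3:**
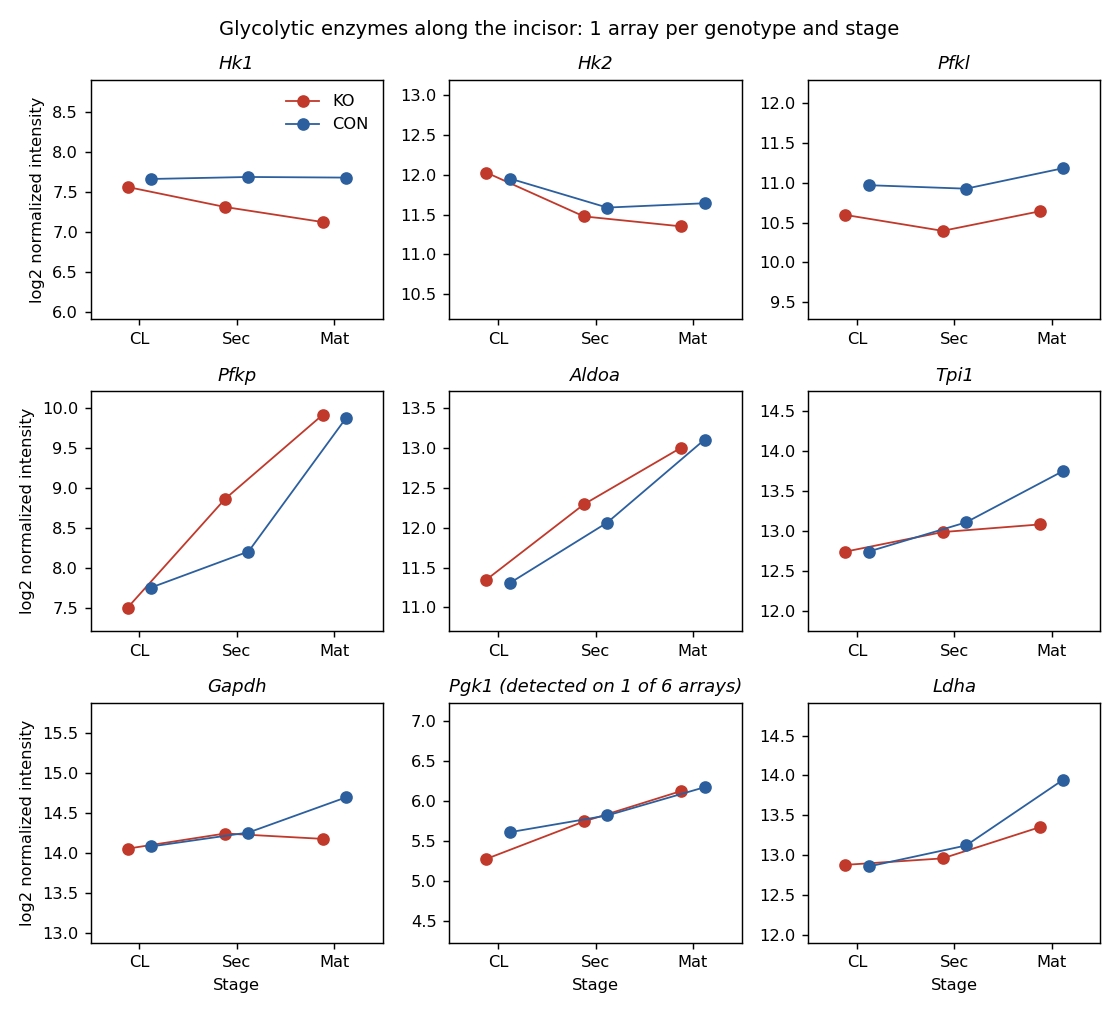
Log2 normalized intensity of each of the 9 enzymes with a probe at CL, Sec and Mat, with KO in red on the left and CON in blue on the right of each stage, every point being 1 array and every panel spanning 3 log2 units. Pfkp and Aldoa climb in both genotypes. At Mat Hk1, Pfkl, Tpi1, Gapdh and Ldha lie lower in KO, with log2 differences between -0.67 and -0.52. The lines of the brighter Pfkl probe lie apart, with CON above KO.

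Across the 6 arrays the enzymes fell into patterns that are described here with Pearson's r over 6 arrays, which share genotypes and stages. Tpi1 and Gapdh had an r of 0.98, Tpi1 and Ldha 0.967 and Gapdh and Ldha 0.917. Pfkp and Aldoa had an r of 0.983. Hk2 ran opposite to both, with -0.818 against Aldoa and -0.796 against Pfkp, and Pfkl was weakly related to Pfkp (0.141), the other phosphofructokinase. The mean of the 8 enzymes detected on all arrays, each centred on its own mean, was -0.33 in KO and -0.25 in CON at CL, -0.10 in KO and -0.05 in CON at Sec, and 0.16 in KO and 0.57 in CON at Mat. The other genes detected on all 6 arrays were compared with this mean by r. Highest were Srebf2 (0.997), Traf3ip2 (0.996), Hmox1 (0.996), Sh3glb1 (0.994) and Itgbl1 (0.993). Srebf2 is a factor of cholesterol synthesis and Hmox1 the enzyme that breaks down haem. This r describes shape and not size, as Srebf2 lay between 9.96 and 10.24 and Hmox1 between 7.30 and 10.55.

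From CL to Mat the enzymes were brighter in CON for 5 of 8 and in KO for 2 of 9, and Aldoa and Pfkp were the ones shared. Aldoa was higher at Mat than at CL by 1.65 in KO and 1.80 in CON on the log2 scale, and Pfkp by 2.41 in KO and 2.12 in CON. Ldha differed by 0.47 in KO and was higher at Mat by 1.09 in CON. Tpi1 differed by 0.34 in KO and was higher by 1.01 in CON, and Gapdh differed by 0.12 in KO and was higher by 0.61 in CON. These 3 enzymes passed 1.5-fold in CON and stayed inside it in KO, and this difference between the genotypes was not tested with 1 array each and uses the same arrays as the comparison at Mat. Hk2 was lower at Mat than at CL in KO (-0.67) and differed by -0.31 in CON. Pfkl differed by 0.05 in KO and 0.21 in CON, and Hk1 by -0.44 in KO and 0.02 in CON. Among all genes 15.8% were higher and 24.6% lower at Mat than at CL in KO, and 17.1% higher and 20.6% lower in CON. Over the 8 enzymes detected on all arrays the median was 0.23 in KO and 0.81 in CON, beside -0.20 in KO and -0.07 in CON over all genes detected on both arrays. With arrays scaled to a common median, Gapdh in CON stayed inside 1.5-fold (0.55).

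**Figure D4:**
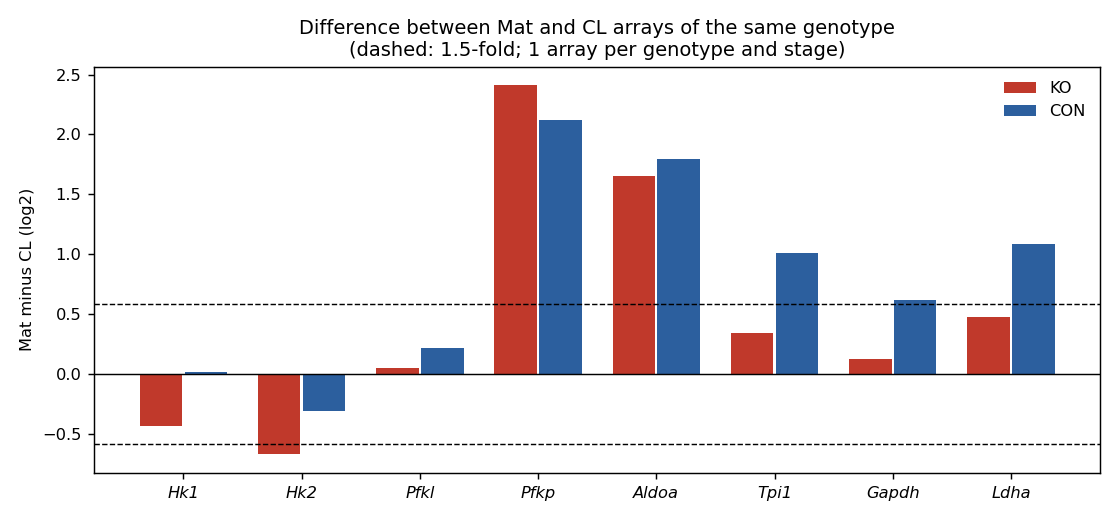
Log2 difference between the Mat and CL arrays of KO (red) and CON (blue) for the 8 enzymes detected on all 6 arrays, with dashed lines at 1.5-fold. Pfkp (2.41 in KO, 2.12 in CON) and Aldoa (1.65 in KO, 1.80 in CON) pass the line in both genotypes, and Tpi1, Gapdh and Ldha pass it in CON alone.

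Between CL and Sec the movement was smaller. In KO 2 of 8 enzymes were higher at Sec and none lower, against 14.5% higher and 19.2% lower among all genes, and in CON 1 of 8 was higher and none lower, against 6.58% and 5.58%. Aldoa was higher at Sec by 0.94 in KO and by 0.76 in CON, and Pfkp was higher by 1.36 in KO and differed by 0.45 in CON. Of the muscle genes 14 of 15 were higher at Mat than at CL in KO (median 3.30) and 14 of 15 in CON (median 3.01).

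A limma model of the 6 arrays, fitted with a genotype and a stage term, tested 8 of the enzymes among 8697 genes detected on at least 3 arrays, with 2 residual degrees of freedom before moderation and Benjamini-Hochberg adjustment over all genes. For genotype limma called none of the 8 enzymes and 0% of all genes, while 1 enzyme and 857 genes had an unadjusted p under 0.05. That enzyme was Pfkl on its brighter probe, with a KO minus CON difference of -0.48 (SE 0.15) and an adjusted p of 0.496. With the mean of detected probes no enzyme (0) had an unadjusted p under 0.05 for genotype in limma. The other 7 enzymes had adjusted p-values between 0.529 and 0.905 in limma. For Mat against CL none of the 8 enzymes was called in limma, with 0.0115% of all genes called and 4 enzymes and 2739 genes at an unadjusted p under 0.05. Pfkp, higher at Mat in both genotypes by 2.27 (SE 0.28), and Aldoa, by 1.73 (SE 0.20), each had an adjusted p of 0.0641. Both passed 0.05 when the arrays were scaled to a common median (smallest adjusted p = 0.0468, 312 genes called) and when the Sec arrays were left out (0.0390, 188 genes called). For Sec against CL 0.0115% of genes and none of the enzymes were called in limma, 2 enzymes and 1012 genes having an unadjusted p under 0.05, and for Mat against Sec 0% and none, 3 enzymes and 623 genes having one. The p of this fit measures how alike the stages or genotypes are, not how alike animals are.

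The list of isozymes and other enzymes related to the glycolytic steps, which includes the D-lactate dehydrogenase Ldhd, went both ways. For this list and those that follow, the shares over all genes were 11.7% higher and 15.2% lower in KO at Sec. At Mat these shares were 12.6% higher and 18.4% lower. Of 10 other enzymes of the glycolytic steps considered at CL none was called. At Sec 2 of 11 were higher and 3 lower in KO (median -0.11), and at Mat 1 of 10 was higher and 3 lower (median -0.30, beside -0.14 over all genes). The muscle enolase Eno3 read 10.40 in KO and 8.63 in CON at Sec and 11.29 in KO and 10.30 in CON at Mat, higher in KO by 1.76 and 0.99. The muscle phosphoglycerate mutase Pgam2 was higher at Sec (0.69) and differed by 0.28 at Mat. These are muscle forms. Pfkm, the muscle phosphofructokinase of the same list, differed by -0.11 at Sec and -0.36 at Mat and was called at neither stage. Of the 15 muscle genes, 14 were higher at Sec, while at Mat 7 were higher and 2 lower, and the part of muscle in the values of Eno3 and Pgam2 was not tested.

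The neuronal enolase Eno2 read 7.64 in KO and 8.39 in CON at Sec and 7.68 in KO and 8.76 in CON at Mat, lower in KO with log2 differences of -0.75 and -1.09. Pkm, the pyruvate kinase of most tissues and the step before Ldha, read 12.37 in KO and 12.74 in CON at Sec and 12.77 in KO and 13.52 in CON at Mat. It was lower in KO at Mat (-0.74) and differed by -0.37 at Sec and 0.09 at CL. The D-lactate dehydrogenase Ldhd was lower at Sec (-0.80) and Mat (-1.47), and the ADP-dependent glucokinase Adpgk was lower at Sec (-0.60). Eno1b, a gene of the enolase family outside the lists and named after its values were seen, was lower at Mat (-0.89). With the deposited normalized values Pgam2, Eno2, Ldhd and Adpgk all stayed inside 1.5-fold at Sec.

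Regulators of flux were few on the array. Of 4 considered 2 were higher in KO at Sec and 2 at Mat, none was lower, and both were fructose bisphosphatases, which run the phosphofructokinase step backwards. Fbp1 read 9.66 at Sec and 10.25 at Mat in KO, and 5.11 and 5.65 in CON, where it was not well above background, so it was higher in KO at Sec by at least 3.52 and higher at Mat by at least 4.06 on the log2 scale. Fbp2, the muscle form, was higher by at least 0.62 at Sec and by 1.03 at Mat. The list median was 0.47 at Sec and 0.59 at Mat, with such genes at their bound. With the deposited normalized values Fbp2 stayed inside 1.5-fold at both stages.

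Of 7 genes considered at Mat from the list of glucose and lactate transporters 2 were lower in KO and none higher (median -0.35). Among all genes 18.4% were lower. The lactate transporters Slc16a1, Slc16a3, Slc16a7 and Slc16a8 were not detected at Sec or Mat, so the counts there do not cover them. Slc2a1, the glucose transporter of red cells and many epithelia, read 9.87 in KO and 10.97 in CON at Mat, a log2 difference of -1.09, and 9.84 in KO and 9.84 in CON at Sec. Bsg, the chaperone of the lactate transporters, was lower at Mat by at least 1.21 on the log2 scale, the KO array not detecting it there. At Sec 3 of 7 were lower and none higher (median -0.28), Slc2a3 (-1.04), Slc2a10 (-0.88) and Slc2a13 (-0.80). None of 7 was called at CL. With the deposited normalized values Bsg at Mat and Slc2a10 and Slc2a13 at Sec stayed inside 1.5-fold.

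Beyond Ldha, pyruvate enters the mitochondria and the citrate cycle. Of 23 genes of this step 8 were lower and 1 higher in KO at Mat (median -0.35), against 18.4% and 12.6% of all genes. At Sec 1 was lower (median -0.18) and at CL 1 was higher (median 0.11). The largest differences at Mat were those of Sdhd (-1.36), an anchor subunit of succinate dehydrogenase, Idh3a (-1.31), the catalytic subunit of isocitrate dehydrogenase, Dld (-1.18), a subunit shared by the pyruvate and oxoglutarate dehydrogenases, and Pdp2 (-0.92), which activates pyruvate dehydrogenase. Idh3a read 9.63 in KO and 10.94 in CON at Mat. Pdk4, the kinase that shuts pyruvate dehydrogenase, went against its list and was higher at Mat (0.71).

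Among the branches, H6pd (-0.78) was the 1 lower gene of 5 of the pentose phosphate pathway at Mat (median 0.24). Of 10 glycogen genes 3 were lower at Mat, glycogenin Gyg (-0.90), Phkb (-0.71) and Pgm1 (-0.67), and the liver phosphorylase Pygl was higher (0.92), with a median of -0.25. At Sec the glycogen-targeting phosphatase subunit Ppp1r3c was lower (-1.22). Of 4 gluconeogenic enzymes at Mat 3 were lower, Got1 (-0.97), Mdh1 (-0.71) and G6pc3 (-0.68), with a median of -0.69. With the deposited normalized values Phkb, Got1 and G6pc3 stayed inside 1.5-fold at Mat.

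**Figure D5:**
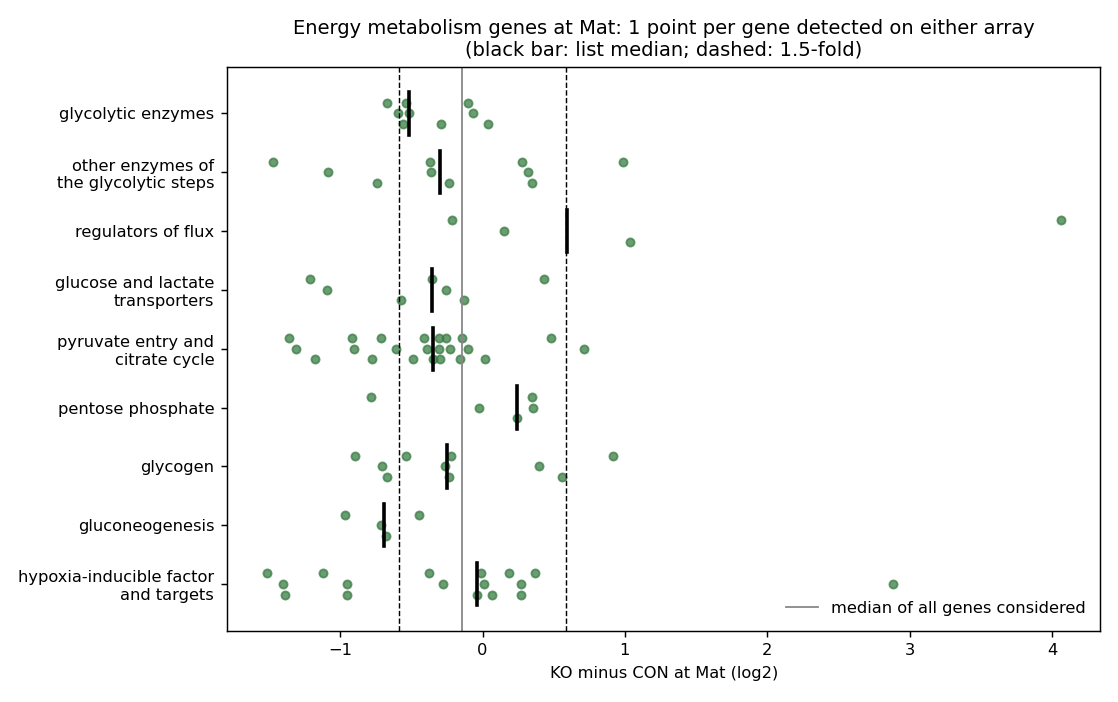
Log2 difference (KO minus CON) at Mat for genes of energy metabolism detected on either Mat array, 1 green point per gene and 1 row per list, with a black bar at each list's median, a grey line at the median of all genes (-0.14) and dashed lines at 1.5-fold. The bars of gluconeogenesis (-0.69), the glycolytic enzymes (-0.52), pyruvate entry and the citrate cycle (-0.35) and the transporters (-0.35) lie left of the grey line. So do those of the other glycolytic enzymes (-0.30) and glycogen (-0.25). The bars of the hypoxia-inducible factor list (-0.04), pentose phosphate (0.24) and regulators of flux (0.59) lie right of it. Fbp1 at the far right is a lower bound (4.06).

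Of the textbook activators, Hif1a was higher in KO at CL (0.66) and lower at Mat (-1.12), where it read 8.87 in KO and 9.99 in CON. Its relative Epas1 was lower at Sec (-0.75) and Mat (-1.40). Of 17 genes of the hypoxia-inducible factor and its targets outside glycolysis considered at Mat 6 were lower and 1 was higher (median -0.04), Hmox1 (-1.52) and Vegfa (-1.39) being the lowest beside Epas1. Egln3, a prolyl hydroxylase that is itself a target, went the other way and was higher by at least 3.36 at Sec and by 2.88 at Mat. At Sec 4 of 18 were lower and 1 higher (median -0.01). Of 6 genes of the Myc family 1 was higher and 1 lower at Sec and at Mat. Mycl was the higher one (1.45 at Sec and 2.22 at Mat), and Mxd4 (-0.93 at Sec) and Mlx (-0.59 at Mat) were lower. With the deposited normalized values Hif1a at CL, Epas1 at Sec and Mlx at Mat stayed inside 1.5-fold.

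Markers of other cells also moved at Mat, where Tpi1 and Ldha were lower. Of 10 endothelial genes considered 9 were lower in KO, with a summed normalized intensity of 11481 in KO and 20512 in CON, and 4 of 4 osteoclast genes were lower, with 8613 in KO and 19710 in CON. Kdr of the endothelial list and 4 of 8 osteoclast genes, Calcr, Ocstamp, Dcstamp and Atp6v0d2, were detected on none of the arrays. All 6 cell division genes considered were higher, with 5680 in KO and 1434 in CON, and 9 of 9 cornified epidermis genes were higher, with 72628 in KO and 1858 in CON. Of the ameloblast genes 2 of 5 were lower, with 90516 in KO and 108594 in CON. None of 4 genes of Krt14-expressing epithelium was called at Mat, and 1 of 7 housekeeping genes other than the enzymes was higher (median -0.11). The part of these cells in the values of Tpi1, Gapdh and Ldha was not tested.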

How the data were processed

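RNA of microdissected incisor tissue was hybridized to Illumina mouse bead arrays, and GenomeStudio is named in the submitters' processing notes, its version not given in the sources used here. The deposited table holds, for 25697 probes and 6 arrays, the intensity on the linear scale without background subtraction, with a detection p-value that the authors' software gave against negative-control beads. Its counterpart of normalized intensities served as an alternative. In limma 3.58.1 under R 4.3.3, neqc removed background estimated through the detection p-values, equalized the arrays' quantiles, added an offset of 16 and gave log2 values. Of the probes 23978 carried 1 gene symbol of the array's annotation, and each gene took its brightest probe. A gene not detected on the dimmer array was set there to its own reading or, if larger, the array's lowest detected one (5.83 to 6.19), and its difference is a bound. The comparison of array pairs and the limma fit were tested on simulated normalized values with planted genotype differences and every gene detected. Normalization, probe choice and the bound were not part of that test.

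The text names all members with a probe, up to 4 called genes of each pathway list and those against it, up to 2 of each marker list and Med1, with a few further called or undetected genes named after their values were seen. Members and lists were chosen with earlier results of these data known. Each pool of 3 mice is 1 sample, so limma's p-values measure only the spread between these arrays. The number of arrays limits the precision. The alternatives were the deposited normalized values, arrays scaled to a common median, an offset of 50, the mean of detected probes, detection at 0.05, a 2-fold threshold, no filter and fits without a stage.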

Additional observations from a re-analysis of the deposited data

Results flagged for a closer look

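On its brightest probe Pfkp had a KO minus CON difference of -0.25 at CL and 0.66 at Sec. On that probe the KO array lay below the CON array at CL and above it at Sec, a gap of 0.91 on the log2 scale. A second Pfkp probe did not change sign, with 0.03 at CL and 0.31 at Sec. The mean of the detected Pfkp probes gave -0.11 at CL and 0.48 at Sec, inside 1.5-fold. Ldha had a difference of 0.02 at CL and -0.60 at Mat, a gap of -0.62, the value at CL being close to 0. Both were flagged because the values at the 2 stages had opposite signs and 1 of them passed 1.5-fold. For Ldha the sign at CL rests on a value close to 0. Tpi1, with -0.00 at CL and -0.67 at Mat, was not flagged, its value at CL lying just below 0. With 1 array for each genotype and stage the difference between stages was not tested for any of these enzymes.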

How the results depend on the processing

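No called difference of an enzyme changed sign under any alternative. With the deposited normalized values or the mean of detected probes, the enzymes higher at Sec numbered 0, Pfkp falling inside 1.5-fold, and the median at Mat was -0.32 with the deposited values. With arrays scaled to a common median, 1 enzyme was lower at Sec (Pfkl, -0.60) and 4 were lower at Mat, where Pfkl (-0.71) and Gapdh (-0.59) joined Tpi1 and Ldha. With that scaling 1 enzyme, Hk2 (-0.68), was lower at Sec than at CL in KO, and the median there was -0.032. At 2-fold no enzyme (0) was higher at Sec or lower at Mat in KO against CON, 0 were lower at Mat than at CL in KO, and from CL to Sec 1 was higher in KO and 0 in CON. With the mean of detected probes Tpi1 at Mat fell to -0.43, Pfkl was -0.08 at CL, -0.16 at Sec and -0.65 at Mat, and the medians of Mat minus CL were 0.27 in KO, where Pgk1 is included, and 0.69 in CON. With that mean no enzyme, Pfkl included, had an unadjusted p under 0.05 for genotype in limma. With detection at 0.05, which lets Pgk1 in, the medians of Mat minus CL were 0.34 in KO and 0.61 in CON. Limma called 2 enzymes, Pfkp and Aldoa, for Mat against CL with arrays scaled to a common median, and 2 without the Sec arrays, an alternative chosen after seeing the data. For genotype it called 0 enzymes without CL, Sec or Mat, and 80 genes without CL. Of 324 recomputed counts of pathway lists 51 moved, by more than 1.5 times or between 0 and another count. Of 143 recomputed counts and medians of the enzymes 18 moved, a median being called moved beyond a log2 change of 0.1. Single pathway genes fell inside 1.5-fold in 31 of 280 recomputations. Values near the floor, as of Pgk1 and the dim Tpi1 and Pfkl probes, are the least certain. Processed copies of Gapdh and Ldha exist in the genome, and binding of their transcripts to the probes was not tested.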
